A study of Mus musculus with 12 samples.

Results

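The genes described here mark 4 cell classes that are not neural: 5 genes of red blood cells, 11 of macrophages, 9 of the endothelium that lines blood vessels, and 10 of mesenchyme and pericytes. They are 35 of the 18193 genes that the probe table names singly on Affymetrix Mouse 430 2.0 arrays. The members were all probe sets whose only gene symbol was on the list, 60 probe sets in all, and 15 members had more than 1. The arrays measured RNA of sorted neural tube cells of ePet-EYFP mouse embryos at stage E12.5. In these embryos the serotonin neurons carry yellow fluorescent protein (YFP) under a Pet-1 enhancer. The 4 groups were R+, rostral YFP-positive serotonin neurons, R-, rostral YFP-negative cells, C+, caudal YFP-positive serotonin neurons, and C-, caudal YFP-negative cells. The pontine flexure divided the rostral from the caudal domain. Embryos of all groups carried the transgene, no strain is given, and each group had 3 biological replicates of 200000 cells. R- and C- are labelled as non-5HT neurons, and no step against other cell types of the dissected tissue is described.

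In the midgestation embryo red cells of the first, yolk sac wave still circulate, and they make embryonic globins from the zeta (Hba-x), epsilon-y (Hbb-y) and beta-h1 (Hbb-bh1) genes. Vessels grow into the neural tube from a plexus around it, with an endothelial lining and pericytes outside it. Macrophages of the yolk sac enter the brain early and give rise to microglia, and the mesenchyme around the neural tube forms the meninges. These classes therefore lie in or around the tissue that was dissected, and the serotonin neurons sorted by YFP belong to none of them.

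The 9 serotonin neuron markers measured, among them Tph2 and Slc6a4, were all higher in R+ than in R- and in C+ than in C-. Of 6 markers of other neurons 6 were lower in R+ than in R- (median -3.25 on the log2 scale) and 5 in C+ than in C- (median -2.52). Of 7 neural progenitor markers 7 were lower in R+ (median -1.70) and 6 in C+ (median -1.27). These lists fell beside the red cell and mesenchyme genes below, and their part in those results was not tested. All 12 arrays had been scaled alike, with median signals of 93 to 121. The 3'-to-5' beta-actin control ratio, a measure of RNA integrity and labelling, was 2.64 to 3.6 in R+, 2.88 to 4.39 in R-, 4.52 to 6.92 in C+ and 4.66 to 7.69 in C-. Every caudal array had a higher ratio than every rostral array. A fit with the ratio as a covariate, given below, therefore cannot separate the ratio from the domain. The part of the ratio in the domain differences was not tested.

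Of the 35 members 25 were tested, those that exceeded a signal of 107 (the median over the whole table) on 3 or more arrays. None of the 25 passed through a single group alone, but 3 of them, Alas2, Col1a1 and Postn, exceeded 107 on YFP-negative arrays only. The 10 others were Hba-a1 of red cells, C1qa, C1qc, Aif1 and Ptprc of macrophages, Pecam1, Tek and Tie1 of endothelium, and Lum and Twist1 of mesenchyme. Differences are on the log2(signal + 10) scale, the first group minus the second, ± SE with 3 arrays a group. Genes were called at an adjusted p under 0.05 over all 12845 genes tested. In these bulk samples fewer cells of a class and less RNA per cell cannot be told apart.

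In both domains the YFP-positive cells had lower signals of red cell and mesenchyme genes, while of 7 macrophage and 6 endothelial genes tested 1 was higher in R+ and 3 were lower in C+. Between R+ and R-, 1 member was higher and 8 were lower among the 25 tested, where 4.34% of all genes were higher and 7.86% lower. Between C+ and C-, 0 members were higher and 12 lower, where 5.71% of all genes were higher and 7.39% lower (2 members had an estimate above 0, and with the replicate number as a block 1 of them, Lyz2, passed as higher). Without the signal filter all 35 members could be tested. Then 1 was higher and 8 lower in R+ than in R-, against 2.76% and 5.11% of 18193 genes. In C+ against C- 0 were higher and 14 lower, against 3.68% and 4.67%. Their median difference was -0.62 between R+ and R- and -0.94 between C+ and C-, and over all genes it was -0.01 and -0.05. Every array of the YFP-positive group lay below every array of the YFP-negative group for 11 of 35 members in the rostral domain, as for 13% of all genes, and for 19 of 35 in the caudal domain, as for 12.4%.

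**Figure D1:**
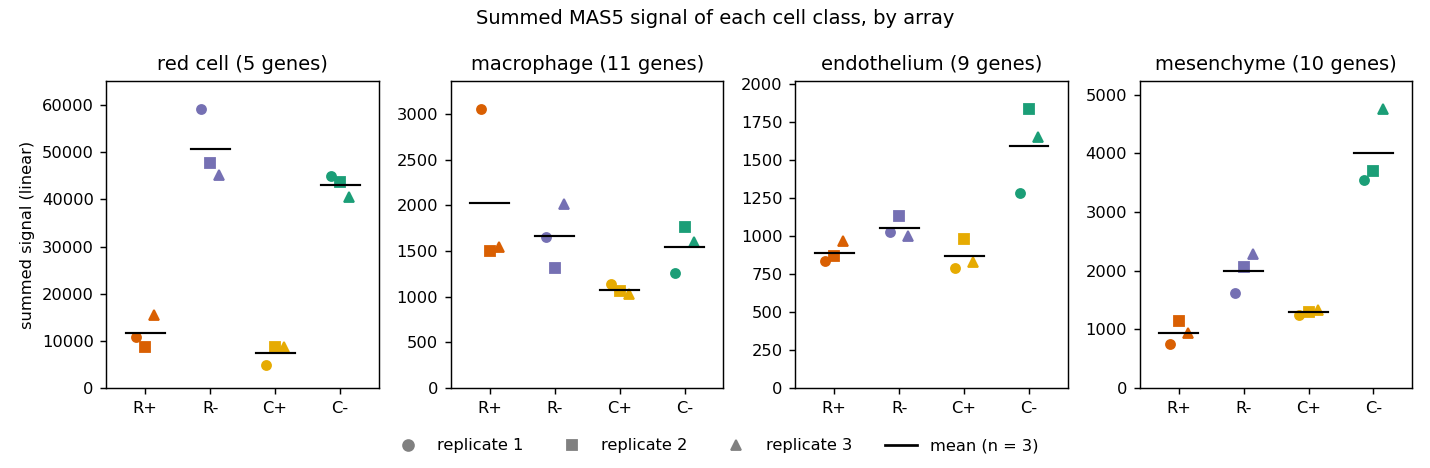
Summed MAS5 signal (linear, from 0) of the members of each cell class, taken from the brightest probe set of each gene, for the 12 arrays (points, shaped by replicate) with the group mean (line, n = 3). Red cell, endothelial and mesenchyme sums separate the YFP-positive from the YFP-negative arrays in each domain, and macrophage sums do so in the caudal domain. The macrophage sum of R+ replicate 1 stands at 3057, above the other 2 R+ arrays at 1499 and 1542.

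The upstream sequences of the red cell genes with an entry in the promoter table are shown, since 3 of them, Hba-x, Hbb-y and Alas2, were lower in the YFP-positive cells of both domains. The fourth, Hba-a1, was not called. The RefSeq promoter table (GRCm38.p6) holds 26 of the 35 members, 4 of the 5 red cell genes among them. The 250 bases before the start site are printed 5' to 3', with capitals for GATAA, the core letters bound by GATA factors, and for CACCC, the core letters bound by the erythroid factor Klf1 and its relatives, each on either strand. Of 32851 promoter windows of this length in the table, 22.6% hold GATAA, 52% hold CACCC and 10.1% hold both. GATAA occurs in 7 of the 26 members and CACCC in 20. Both occur in 5 members, among which are all 4 red cell genes. A match is only a run of letters.
Hba-x (chr11:32276350-32276599, plus strand): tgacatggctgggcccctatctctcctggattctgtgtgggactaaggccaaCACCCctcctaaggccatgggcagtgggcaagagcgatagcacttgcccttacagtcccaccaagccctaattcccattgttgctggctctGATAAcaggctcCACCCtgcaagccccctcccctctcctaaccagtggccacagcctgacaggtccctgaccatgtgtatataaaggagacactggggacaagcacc
Hba-a1 (chr11:32283422-32283671, plus strand): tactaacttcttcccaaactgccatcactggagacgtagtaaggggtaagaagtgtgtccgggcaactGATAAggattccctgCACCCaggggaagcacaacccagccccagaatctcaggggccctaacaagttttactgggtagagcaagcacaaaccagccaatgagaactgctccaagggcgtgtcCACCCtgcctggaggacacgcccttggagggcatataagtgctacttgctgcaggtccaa
Hbb-y (chr7:103853208-103853457, minus strand): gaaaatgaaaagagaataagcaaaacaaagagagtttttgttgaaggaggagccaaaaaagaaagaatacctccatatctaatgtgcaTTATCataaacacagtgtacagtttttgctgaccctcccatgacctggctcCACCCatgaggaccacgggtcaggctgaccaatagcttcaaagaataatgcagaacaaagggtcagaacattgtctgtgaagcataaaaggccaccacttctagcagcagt
Alas2 (chrX:150547167-150547416, plus strand): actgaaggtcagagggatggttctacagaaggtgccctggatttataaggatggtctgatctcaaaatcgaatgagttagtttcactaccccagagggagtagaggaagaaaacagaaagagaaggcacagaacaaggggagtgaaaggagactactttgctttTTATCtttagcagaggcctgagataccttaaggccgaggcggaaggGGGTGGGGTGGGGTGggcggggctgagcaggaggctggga

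Red cell genes had the largest median differences of the 4 classes, -2.68 between R+ and R- and -3.39 between C+ and C- over the 4 tested. Hbb-bh1, an embryonic beta-like globin, had signals of 212, 445 and 788 in R+, against 3563, 6649 and 6836 in R-. It had 91, 328 and 394 in C+, against 2445, 3281 and 4018 in C-. Every YFP-positive array lay below every YFP-negative one, and the highest of them, 788, was well under the lowest YFP-negative one, 2445. The differences were -3.66 ± 0.49 rostrally (adjusted p = 0.000114) and -3.73 ± 0.49 caudally (adjusted p = 8.55e-05), 12.6-fold and 13.3-fold lower in the YFP-positive cells on that scale. Its other probe sets gave -3.64 and -4.02 in the rostral domain and -3.41 and -4.12 in the caudal domain.

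Hba-x, the embryonic alpha-like globin, had signals of 2103, 2035 and 3880 in R+, against 24152, 15942 and 16926 in R-. In the caudal domain it had 1099, 1805 and 1526 in C+, against 15099, 14437 and 14088 in C-. The 3 C- arrays lay within a narrow range, and no YFP-positive array came near a YFP-negative one. The differences were -2.87 ± 0.24 (adjusted p = 9.43e-07) and -3.32 ± 0.24 (adjusted p = 1.89e-07). Its promoter, printed above, holds GATAA once and CACCC at 2 places.

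Hbb-y, another embryonic globin of the beta cluster, kept high signals in the YFP-positive cells. They were 8351, 6159 and 10896 in R+, against 31149, 24649 and 21082 in R-. In C+ they were 3596, 6464 and 6656, against 27079, 25616 and 22136 in C-. The groups did not overlap, but the difference was smaller than for the other embryonic globins, -1.62 ± 0.24 rostrally (adjusted p = 0.000253) and -2.21 ± 0.24 caudally (adjusted p = 1.14e-05). Its 2 other probe sets, of a type that can also bind related transcripts (names ending in _x_at), ran at 15491 to 19200 in R+ and 22979 to 39271 in R-. When all kept probe sets were fitted, these 2 gave -0.81 and -0.79 between R+ and R- (adjusted p = 0.053 and 0.0576) and -1.29 and -1.28 between C+ and C- (adjusted p = 0.00299 and 0.00327). Whether such bright signals were near the scanner's ceiling was not tested.

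Alas2, the red-cell form of the first enzyme of heme synthesis, had signals of 56, 54 and 16 in R+, against 277, 285 and 226 in R-. It had 6, 29 and 16 in C+, against 303, 343 and 185 in C-. No YFP-positive array passed the threshold of 107, and every YFP-negative array did. The differences were -2.50 ± 0.47 (adjusted p = 0.0023) and -3.46 ± 0.47 (adjusted p = 0.000131). The enzymes of heme synthesis that other cells also use differed far less. Of 7 measured, including Alas1, the form of other tissues, and Fech, which inserts the iron, none passed in either domain by limma, also with 0 and 1 at an unadjusted p under 0.05. Their differences ran between -0.47 and 0.25 rostrally and between -0.61 and 0.30 caudally.

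**Figure D2:**
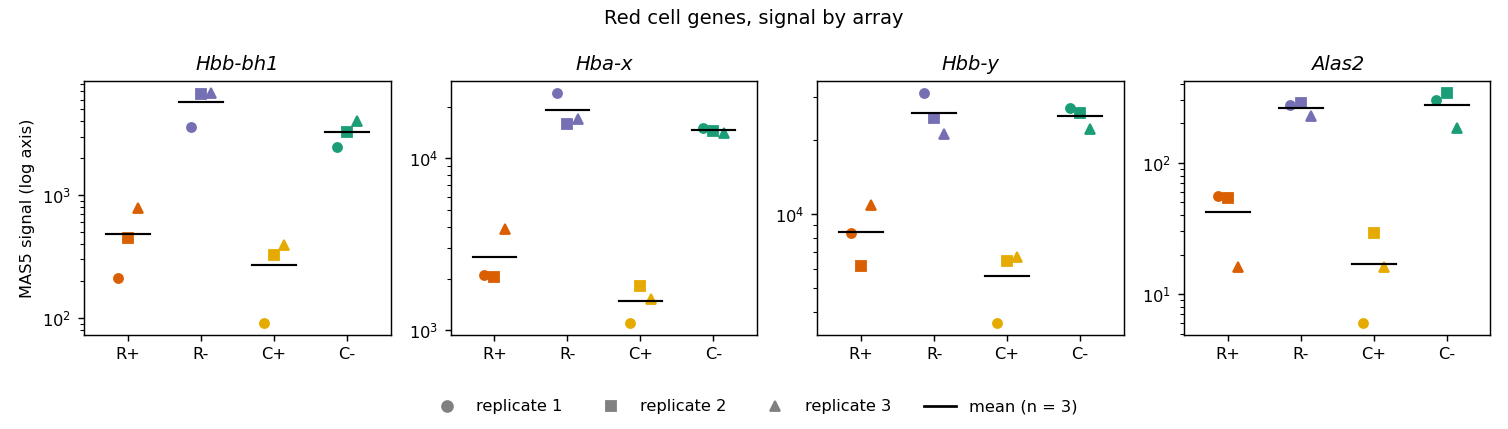
MAS5 signal (log axis) of the 4 red cell genes tested, for the 12 arrays (points, shaped by replicate) with the group mean (line, n = 3). In each panel all R+ and C+ arrays lie below all R- and C- arrays.

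The remaining red cell member, Hba-a1, an adult alpha-globin gene, was dim on its single probe set, at 5 to 15 in R+, 14 to 78 in R-, 12 to 90 in C+ and 37 to 80 in C-. Probe sets that the table gives to several genes were not used. Whether the probe set of Hba-a2, the neighbouring adult gene, tells it from Hba-a1 was not tested. On that probe set Hba-a2 did not follow the embryonic globins. Its signals were 2010, 620 and 724 in R+, against 1222, 645 and 438 in R-, and 230, 347 and 224 in C+, against 429, 362 and 321 in C-. The YFP difference was 0.46 ± 0.40 rostrally (adjusted p = 0.585) and -0.48 ± 0.40 caudally (adjusted p = 0.53). It was higher in R+ than in C+ by 1.85 ± 0.40 (adjusted p = 0.0129), a call lost with the beta-actin ratio as a covariate (adjusted p = 0.405) and without C+ replicate 3 (adjusted p = 0.0575).

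Of 30 other red cell genes 17 were tested, and 0 were higher and 3 lower in R+ than in R-, and 0 and 5 in C+ than in C-. The shares of all genes were 4.34% and 7.86% rostrally and 5.71% and 7.39% caudally. Blvrb, a reductase abundant in red cells, had signals of 22, 14 and 54 in R+, against 268, 156 and 123 in R-, and 7, 13 and 24 in C+, against 238, 116 and 232 in C-. Its differences were -2.32 ± 0.55 and -3.05 ± 0.55, the first lost without R- replicate 1 (adjusted p = 0.0656). Slc4a1, the anion exchanger of the red cell membrane, differed by -2.61 ± 0.51 between C+ and C-. Blvrb and Slc4a1 exceeded the signal threshold of the filter on YFP-negative arrays only. The filter therefore admitted both genes through the groups in which they were higher. Tal1, a factor of blood progenitors that some midbrain and hindbrain neurons also use, differed by -3.05 ± 0.19 and -2.34 ± 0.19, and Car2, a carbonic anhydrase, by -2.10 ± 0.23 and -0.95 ± 0.23. The caudal Car2 call was lost without C- replicate 2 (adjusted p = 0.058). Trim10, the fifth caudal gene, was at -1.21 ± 0.37 (adjusted p = 0.0461) and lost its call in 14 of 23 alternatives.

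Between the domains the 4 red cell members tested had higher estimates in R+ than in C+, but none passed (2 had an unadjusted p under 0.05). The estimates were 0.85 for Hbb-bh1, 0.81 for Hba-x, 0.62 for Hbb-y and 0.92 for Alas2. Hba-a1, fitted without the filter, went the other way, at -1.59 (adjusted p = 0.189). With the replicate number as a block Hbb-bh1 and Hba-x passed as higher in R+ (adjusted p = 0.0133 and 0.0175). With the beta-actin ratio as a covariate Hbb-bh1 was 2.40 (adjusted p = 0.0198) and Hba-x 0.93 (adjusted p = 0.259). Between R- and C- no red cell member passed by limma, and none had an unadjusted p under 0.05. Hbb-bh1, at 0.77 ± 0.49, passed with the block (adjusted p = 0.0373), and it was 2.06 with the covariate (adjusted p = 0.0294).

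Mesenchyme and pericyte genes were the second class that was lower in both YFP-positive groups. Of 8 tested, 4 were lower in R+ than in R- and 5 in C+ than in C-, and 0 were higher in either. The shares of all genes called as lower were 7.86% and 7.39%. Without the filter 9 of 10 estimates were below 0 rostrally, as were 51.2% of all genes, and 10 of 10 caudally, as were 54.8%. The median differences of the 10 were -0.91 and -1.53.

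Pdgfrb, the receptor through which pericytes are recruited, had signals of 79, 181 and 101 in R+, against 328, 577 and 492 in R-. It had 113, 151 and 174 in C+, against 569, 827 and 690 in C-. Every YFP-negative array was above every YFP-positive one. The differences were -1.91 ± 0.30 (adjusted p = 0.000462) and -2.18 ± 0.30 (adjusted p = 0.000128).

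Rgs5, a regulator of G-protein signalling used as a pericyte marker, had signals of 130, 189 and 181 in R+, against 513, 362 and 428 in R-. It had 211, 234 and 231 in C+, against 940, 970 and 708 in C-. Both YFP differences were past the threshold, -1.33 ± 0.21 (adjusted p = 0.000439) and -1.89 ± 0.21 (adjusted p = 1.44e-05). A second kept probe set gave -0.86 ± 0.30 and -0.89 ± 0.30 and did not pass (adjusted p = 0.116 and 0.0965).

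Col3a1, a fibrillar collagen chain of soft connective tissue, had signals of 70, 107 and 86 in R+, against 152, 325 and 332 in R-. It had 156, 138 and 173 in C+, against 434, 617 and 1046 in C-. The groups did not overlap in either domain, and the differences were -1.46 ± 0.34 (adjusted p = 0.0102) and -2.01 ± 0.34 (adjusted p = 0.000866). The rostral call was lost without R- replicate 2 (adjusted p = 0.0543) or R- replicate 3 (adjusted p = 0.0605).

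The chains of type I collagen behaved less alike. Col1a1 had 8, 20 and 34 in R+, against 67, 103 and 121 in R-, a difference of -1.86 ± 0.47 (adjusted p = 0.0161). That call was lost without R+ replicate 1, R- replicate 2 or R- replicate 3 (adjusted p = 0.0602, 0.062 and 0.0823). In the caudal domain it had 53, 77 and 61 in C+, against 170, 140 and 154 in C-, at -1.17 ± 0.47 (adjusted p = 0.133). Col1a2 overlapped in the rostral domain, at 244, 315 and 197 in R+, against 225, 315 and 359 in R- (-0.24 ± 0.31, adjusted p = 0.74). In the caudal domain it had 349, 268 and 317 in C+, against 841, 388 and 1042 in C- (-1.15 ± 0.31, adjusted p = 0.0232). This call was lost without C+ replicate 2, C+ replicate 3, C- replicate 1 or C- replicate 3 (adjusted p = 0.0908, 0.0541, 0.0896 and 0.126) and with each array scaled to one median (adjusted p = 0.0548). A second kept probe set of Col1a2 gave -0.73 ± 0.48 rostrally and -1.20 ± 0.48 caudally and did not pass (adjusted p = 0.49 and 0.171).

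Postn, a secreted matrix protein of connective tissue, had signals of 25, 45 and 35 in C+, against 106, 241 and 299 in C- (-2.23 ± 0.49, adjusted p = 0.00595). In R+ it had 26, 58 and 67, against 94, 103 and 182 in R-, at -1.19 ± 0.49 (adjusted p = 0.147, and 0.0458 with the replicate block). Acta2, the smooth muscle actin, ran at 130 to 190 in R+, 144 to 207 in R-, 175 to 265 in C+ and 231 to 436 in C- and was not called in any comparison. Foxc1, a factor of meningeal mesenchyme, was dim, at 3 to 70 in R+, 18 to 91 in R-, 79 to 123 in C+ and 101 to 142 in C-. It was not called either.

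Of the mesenchyme members below the filter, Lum was dim outside C- and Twist1 was dim in all groups. Lum, a matrix proteoglycan, had signals of 45, 13 and 17 in C+, against 88, 115 and 146 in C-, and at most 58 on any rostral array. Fitted without the filter it was -1.94 ± 0.48 between C+ and C- (adjusted p = 0.0178). Twist1, a factor of mesenchyme, lay between 5 and 100 on all arrays and was not called.

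**Figure D3:**
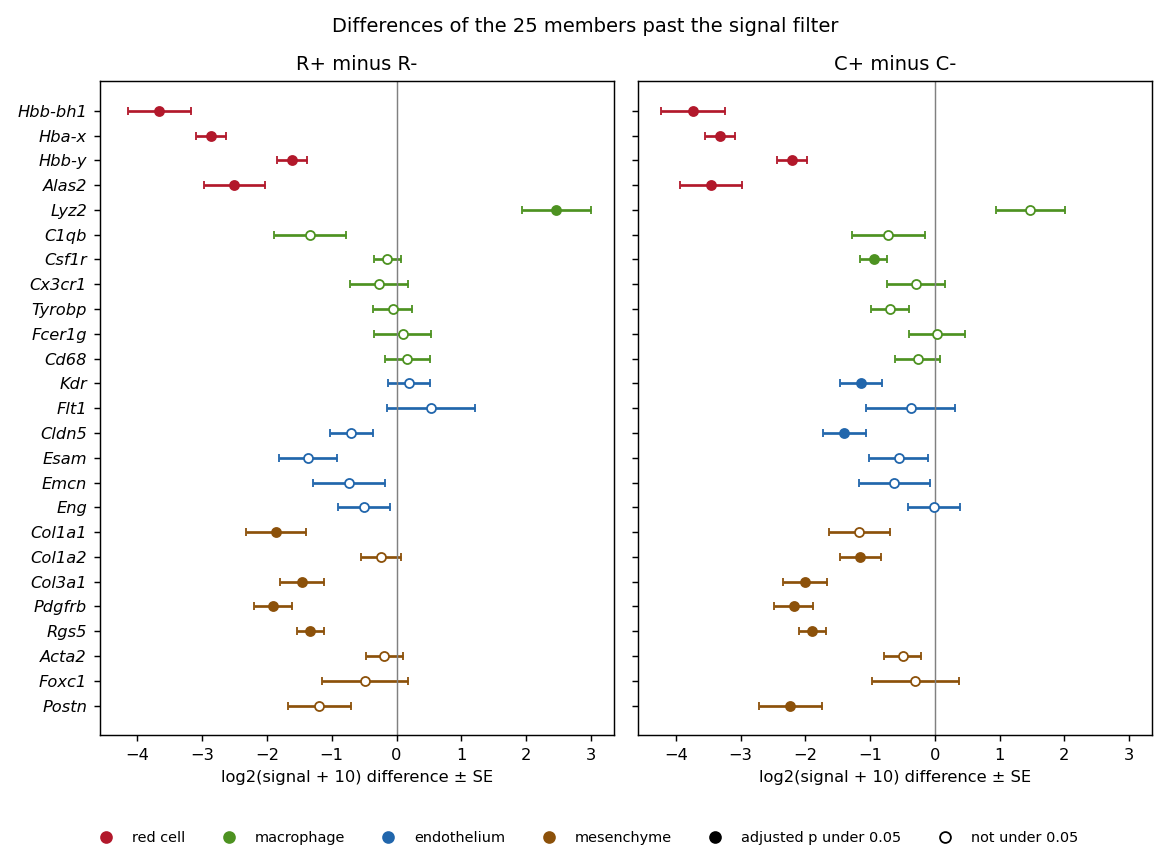
Difference on the log2(signal + 10) scale (points, with SE as bars) of the 25 members past the signal filter, R+ minus R- on the left and C+ minus C- on the right, coloured by cell class, filled where the adjusted p was under 0.05. All red cell and mesenchyme points lie left of 0 in both panels. Lyz2 is the only filled point right of 0.

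Of 32 other genes of mesenchyme, meninges and pericytes 20 were tested. In R+ against R- 1 was higher and 8 were lower, and in C+ against C- 2 were higher and 9 lower. The furthest below R- were Mfap4, a microfibril protein, at -4.35 ± 0.44, Crabp2, a retinoic acid binding protein that neurons can also make, at -2.48 ± 0.23, Nid1, a basement membrane protein, at -1.78 ± 0.27, and Sparc, a matrix protein, at -1.70 ± 0.19. In the caudal domain Crabp2 was at -2.71 ± 0.23 and Mfap4 at -2.20 ± 0.44. Pdgfra, the receptor of early mesenchyme and of oligodendrocyte precursors, had 86, 30 and 23 in C+, against 275, 354 and 308 in C-, and 5 to 20 on all 6 rostral arrays. This probe set passed the filter through C- arrays alone, the group in which it was high. Its difference between C+ and C- was -2.67 ± 0.66 (adjusted p = 0.0127). The difference passed no more without C+ replicate 3, C- replicate 1, C- replicate 2 or C- replicate 3 (adjusted p = 0.0538, 0.0535, 0.068 and 0.0636). Fitting without the filter brought in another probe set, at -0.32 (adjusted p = 0.845).

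A pair of these genes ran the other way. Vtn, a plasma and matrix protein also made by pericytes, had 1518, 1724 and 1910 in R+, against 792, 860 and 994 in R-, and 2715, 4195 and 4290 in C+, against 942, 1126 and 984 in C-. It was higher by 0.95 ± 0.18 (adjusted p = 0.0021) and 1.84 ± 0.18 (adjusted p = 4.1e-06). Dcn, a small matrix proteoglycan, had 108, 75 and 166 in R+, against 152, 88 and 157 in R-, and 2494, 2178 and 2364 in C+, against 502, 292 and 457 in C-. C+ stood far above the other 3 groups, and the YFP difference itself differed between the domains (-2.69 ± 0.41, adjusted p = 0.003).

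Between R- and C- all 10 members had estimates below 0 without the filter, as did 55.7% of all genes, and for 7 of the 10 every R- array lay below every C- array, as for 9.37% of all genes. Rgs5 was called as lower in R- (-0.99 ± 0.21, adjusted p = 0.0165), and it was the only one of the 25 members called between R- and C-, where 1.05% of all genes were higher and 1.78% lower. The Rgs5 call was lost without R- replicate 2, R- replicate 3, C- replicate 1 or C- replicate 2 (adjusted p = 0.0649, 0.0738, 0.0763 and 0.0809). It was also lost with the mean of its probe sets (adjusted p = 0.134). With the beta-actin ratio as a covariate the Rgs5 difference was -1.13 and did not pass (adjusted p = 0.059). Col1a2 (-1.22 ± 0.31) and Col3a1 (-1.33 ± 0.34) lay just outside the threshold (adjusted p = 0.0513 and 0.0519) and passed with the replicate block (0.0172 and 0.00525). With the covariate they were -0.82 and -0.61 (adjusted p = 0.356 and 0.481). Summed over the 10 members, signals were 1626 to 2282 in R- and 3548 to 4758 in C-. Pdgfra, which passed the filter through C- arrays alone, was lower in R- than in C-, at -4.13 ± 0.66 (adjusted p = 0.00211, and 0.998 without the filter).

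**Figure D4:**
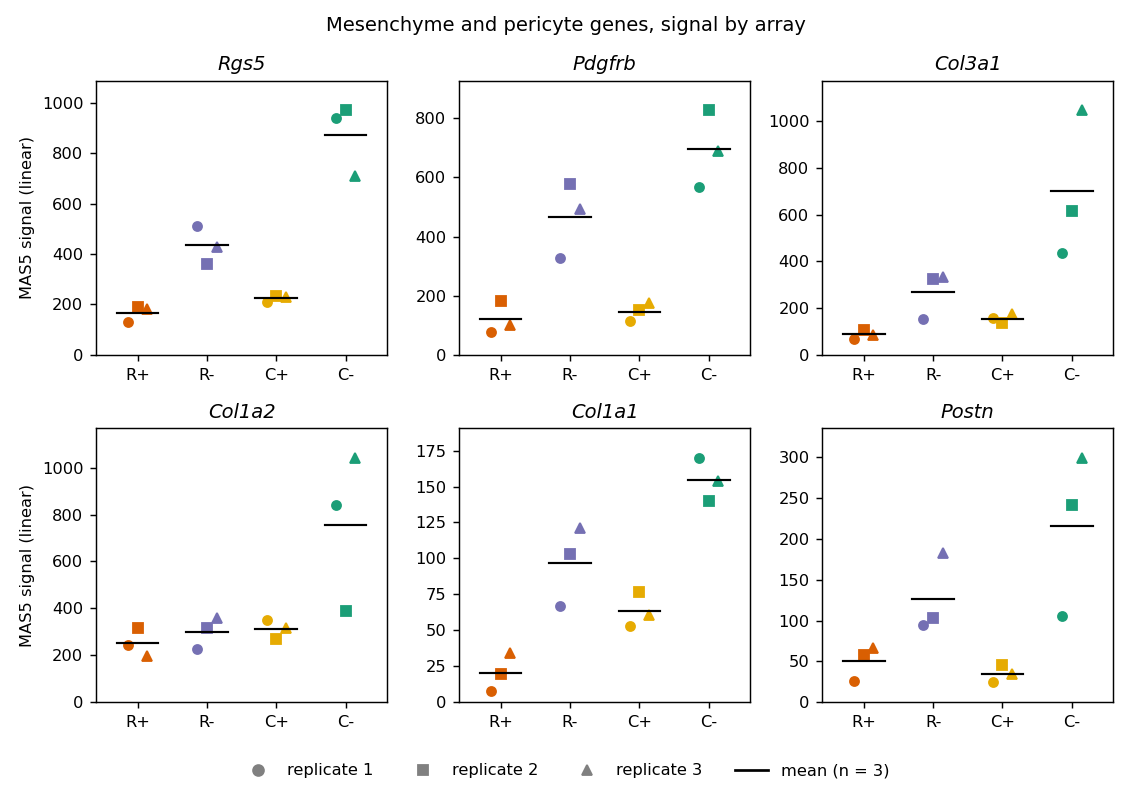
MAS5 signal (linear, from 0) of 6 mesenchyme and pericyte genes, for the 12 arrays (points, shaped by replicate) with the group mean (line, n = 3). C- arrays are the highest for Rgs5, Col3a1 and Col1a1, and the R+ and C+ arrays of Pdgfrb and Rgs5 stay at or below 234.

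Endothelial genes were at low to moderate signals in all groups, and none of the 6 tested was called between R+ and R- by limma (1 had an unadjusted p under 0.05, Esam). Between C+ and C- 2 were lower, Kdr and Cldn5, where 7.39% of all genes were lower. Summed over the 9 members, signals were 837 to 965 in R+ and 999 to 1131 in R-, and 789 to 983 in C+ and 1286 to 1836 in C-. The sums did not overlap in either domain.

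Kdr, the main receptor for vascular endothelial growth factor, had signals of 365, 205 and 336 in R+, against 229, 250 and 289 in R-. It had 77, 181 and 176 in C+, against 263, 266 and 427 in C-. The rostral groups overlapped (0.20 ± 0.32, adjusted p = 0.81), and the caudal groups did not (-1.14 ± 0.32, adjusted p = 0.0302). The caudal call was lost without C+ replicate 1 (adjusted p = 0.0954) or C- replicate 3 (adjusted p = 0.144), and without the filter (adjusted p = 0.0538). The difference between the domains, 1.33 ± 0.46, did not pass (adjusted p = 0.35).

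Cldn5, the tight junction protein of brain endothelium, had 76, 163 and 190 in R+, against 255, 179 and 243 in R-. It had 211, 145 and 168 in C+, against 325, 637 and 507 in C-, where all 3 arrays exceeded those of the other groups. The caudal difference was -1.40 ± 0.33 (adjusted p = 0.00979, and 0.0536 without C- replicate 2), and the rostral one -0.70 ± 0.33 (adjusted p = 0.22). Between R- and C- it was -1.05 ± 0.33 (adjusted p = 0.122, and 0.0438 with the replicate block).

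Esam, an adhesion molecule of endothelial cells, had 50, 123 and 24 in R+, against 169, 264 and 85 in R- (-1.37 ± 0.45, adjusted p = 0.0646, and 0.018 with the replicate block). It had 189, 177 and 185 in C+, against 296, 247 and 286 in C- (-0.56 ± 0.45, adjusted p = 0.51). All R+ arrays lay below all C+ arrays (-1.58 ± 0.45, adjusted p = 0.0473). This call was lost without R+ replicate 1 (0.126), R+ replicate 3 (0.19), C+ replicate 1 (0.057), C+ replicate 2 (0.125) or C+ replicate 3 (0.142), and in 19 of 23 alternatives in all.

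The other endothelial members showed no call. Eng, a co-receptor for transforming growth factor beta, ran at 112 to 158 in R+, 159 to 212 in R-, 115 to 179 in C+ and 64 to 273 in C-. Its difference between C+ and C- was -0.02 ± 0.40, where a second kept probe set gave -1.68 ± 0.73 (adjusted p = 0.208). Emcn, a sialomucin of endothelium, was at 18 to 112 in R+, 65 to 108 in R-, 48 to 101 in C+ and 71 to 129 in C-. Flt1, a decoy receptor for vascular endothelial growth factor, was at 20 to 139 on all arrays. Pecam1, an adhesion molecule, stayed at or below 84 and Tek, the angiopoietin receptor, at or below 140. Tie1, the relative of Tek, was near 0 in 3 groups, at 3, 11 and 6 in R+, 3, 3 and 6 in R- and 5, 3 and 8 in C+, against 42, 29 and 33 in C-. Without the filter the fit gave -1.54 ± 0.38 between C+ and C- (adjusted p = 0.0176) and -1.67 ± 0.38 between R- and C- (adjusted p = 0.0357), where 1.13% of all genes were lower in R-, though its signals were under the median of the arrays throughout.

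Of 30 other endothelial genes 20 were tested. Between R+ and R- 1 was lower and 0 higher, and between C+ and C- 2 were lower and 0 higher. These counts of lower genes were near the shares of all genes, 7.86% and 7.39%. Mfsd2a, a lipid transporter of the blood-brain barrier that is not confined to vessels, had 208, 201 and 200 in R+, against 839, 1032 and 934 in R-, and 224, 153 and 250 in C+, against 720, 936 and 844 in C-. It was lower in both (-2.14 ± 0.19 and -1.96 ± 0.19). Ramp2, a subunit of the adrenomedullin receptor, was at -0.76 ± 0.24 between C+ and C- (adjusted p = 0.0463), and the call was lost in 15 of 23 alternatives, without C- replicate 2 among them (adjusted p = 0.178).

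**Figure D5:**
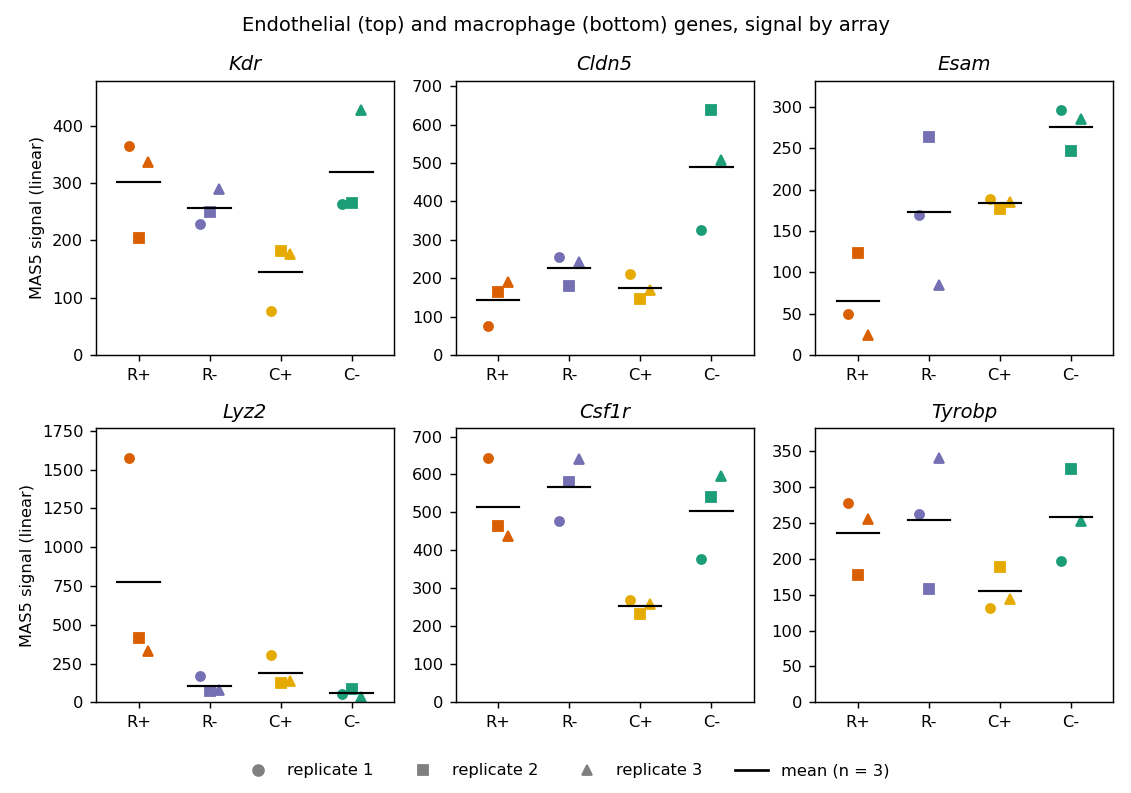
MAS5 signal (linear, from 0) of 3 endothelial genes (top) and 3 macrophage genes (bottom), for the 12 arrays (points, shaped by replicate) with the group mean (line, n = 3). C+ arrays are the lowest for Csf1r, C- arrays the highest for Cldn5, and Lyz2 is highest on R+ replicate 1, at 1577.

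Macrophage genes were called in each domain at 14.3% of those tested, against 12.2% (rostral) and 13.1% (caudal) of all genes. Of 7 tested, 1 was higher and 0 were lower in R+ than in R-, and 0 were higher and 1 lower in C+ than in C-. Their summed signal over all 11 members was 1499 to 3057 in R+ and 1319 to 2011 in R-, which overlap, and 1030 to 1138 in C+ and 1260 to 1767 in C-, which do not. Without the filter 9 of 11 estimates were below 0 in C+ against C-, as were 54.8% of all genes, and for 4 of 11 every C+ array lay below every C- array, as for 12.4%.

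Lyz2, the lysozyme of macrophages and other myeloid cells, was the member that was higher in R+. It had signals of 1577, 414 and 333 in R+, against 167, 75 and 81 in R-. In the caudal domain it had 304, 125 and 137 in C+, against 55, 88 and 36 in C-. All YFP-positive arrays were above the YFP-negative arrays of their domain, and replicate 1 was the highest of its group in R+, R- and C+. The rostral difference was 2.47 ± 0.53 (adjusted p = 0.00592) and stayed past the threshold without all replicate 1 arrays, at 2.12 (adjusted p = 0.00559). The caudal difference was 1.47 ± 0.53 (adjusted p = 0.0916). It passed with the replicate block (adjusted p = 0.0107) and without R+ replicate 1, which enters only the shared spread (adjusted p = 0.0348). Between R+ and C+ it was 1.74 ± 0.53 (adjusted p = 0.0621). It passed with the block (adjusted p = 0.00493) and was 0.09 with the beta-actin ratio as a covariate (adjusted p = 0.963). Lyz2 and its neighbour Lyz1 are close in sequence, and whether the probe set tells them apart was not tested.

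Csf1r, the receptor for colony-stimulating factor 1 on which macrophages depend, had signals of 644, 463 and 439 in R+, against 477, 580 and 642 in R-. It had 269, 233 and 259 in C+, against 378, 540 and 597 in C-. The C+ arrays were below those of every other group, by -0.94 ± 0.21 against C- (adjusted p = 0.00702), and R+ was above C+ by 0.98 ± 0.21 (adjusted p = 0.0126). The last call was lost without R+ replicate 1 (adjusted p = 0.0617) or C+ replicate 2 (adjusted p = 0.0607). With the beta-actin ratio as a covariate the difference was 1.03 and did not pass (adjusted p = 0.142). The probe sets of Csf1r disagreed. A second gave 0.06 ± 0.27 between C+ and C- and 0.55 ± 0.27 between R+ and C+ (adjusted p = 0.944 and 0.288), the remaining one -1.29 ± 0.61 and -0.02 ± 0.61 (adjusted p = 0.253 and 0.992). The mean of the 3 passed in neither comparison (adjusted p = 0.146 and 0.363).

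The other macrophage members gave no call with the filter. Tyrobp, an adaptor of myeloid receptors, was at 177 to 278 in R+, 158 to 341 in R-, 132 to 188 in C+ and 197 to 326 in C-. Fcer1g, a signalling chain of antibody receptors, Cd68, a lysosomal protein, and Cx3cr1, the fractalkine receptor of microglia, lay between 51 and 226 on all arrays. C1qb, a chain of the first complement component, was at 14 to 117 in R+, 107 to 162 in R-, 37 to 83 in C+ and 71 to 136 in C-. Its rostral difference of -1.34 ± 0.56 passed only without R+ replicate 1 (-1.91, adjusted p = 0.0455). Its second kept probe set, at 68 to 107 in R+ and 130 to 164 in R-, gave -0.82 ± 0.38 (adjusted p = 0.256). Its partner chains C1qa and C1qc, Aif1, a calcium-binding protein of microglia, and Ptprc, the common leukocyte antigen, were at or below 135 on every array. No array had a macrophage member at 0. Without the filter C1qc was lower in C+, at 25, 5 and 24, than in C-, at 121, 98 and 70 (-2.00 ± 0.54, adjusted p = 0.0316).

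Of 32 other macrophage genes 20 were tested, with 2 higher and 0 lower in each domain. Pf4, platelet factor 4, made by megakaryocytes and some macrophages, had 573, 532 and 455 in R+, against 202, 209 and 317 in R- (1.09 ± 0.20, adjusted p = 0.00195). Coro1a, an actin regulator of leukocytes that neurons also make, was higher by 0.58 ± 0.15 in R+ and by 1.24 ± 0.15 in C+ (adjusted p = 0.0206 and 4.6e-05). The rostral Coro1a call was lost without R+ replicate 2, R+ replicate 3, R- replicate 1 or R- replicate 3 (adjusted p = 0.0934, 0.0557, 0.0797 and 0.0693). Lgals3, galectin 3, had 144, 66 and 71 in C+, against 7, 13 and 14 in C- (2.22 ± 0.59, adjusted p = 0.0202, and 0.084 without C+ replicate 1 or 0.0541 without C- replicate 1). Lgals3 exceeded the signal threshold of the filter on YFP-positive arrays only.

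Signals that act on these cell classes were also looked at, 19 ligands of which 15 were tested. Cd200, a neuronal membrane protein whose receptor sits on myeloid cells, had 3105, 4155 and 3349 in R+, against 2029, 2366 and 1917 in R-, and 3385, 4295 and 3931 in C+, against 1734, 2507 and 1826 in C-. It was higher by 0.74 ± 0.17 (adjusted p = 0.00773) and 0.95 ± 0.17 (adjusted p = 0.00116), the only ligand called as higher in either domain. The shares of all genes called as higher were 4.34% and 5.71%. Angpt1, a ligand of Tek, was lower in C+ than in C- (-1.37 ± 0.39, adjusted p = 0.0298), where 7.39% of all genes were lower. That call was lost without C+ replicate 1, C+ replicate 2 or C- replicate 2 (adjusted p = 0.0705, 0.0982 and 0.145).

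Between R+ and C+ 1 member was higher, Csf1r, and 1 lower, Esam, where 2.83% of all genes were higher and 4.48% lower. With the replicate block 8 of 25 members passed, as did 21.8% of all genes, among them Hbb-bh1, Hba-x, Lyz2 and Kdr (adjusted p = 0.0153) as higher in R+, and Col1a1 (adjusted p = 0.0474) and Col3a1 (adjusted p = 0.0484) as lower. Kdr was 0.53 without the replicate 1 arrays (adjusted p = 0.277), against 1.06 with them. With the beta-actin ratio as a covariate Col1a1 was -0.83 (adjusted p = 0.656), and Col3a1 turned to 0.09 (adjusted p = 0.948). Between R- and C- 5 of 25 passed with the block, as did 10.2% of all genes. The difference of the YFP differences between the domains passed for 0 of 25 members by limma, where 1.17% of all genes were called. At an unadjusted p under 0.05 there were 2, Csf1r (0.80 ± 0.30) and Kdr, and with the block 0 passed after adjustment. These domain comparisons share the R+ and C+ or the R- and C- arrays with the YFP comparisons.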

How the data were processed

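RNA of 12 sorted cell samples was hybridized to Affymetrix arrays. The authors deposited signal intensity in whole numbers, linear, with a common trimmed mean on every array. The submitters' processing notes name MAS5 without version or settings. Of 45101 probe sets 64 controls were left out. Probe sets with 1 symbol (34945) and a signal over the median on at least 3 arrays were kept (22030), and each gene was represented by its brightest kept probe set, with _x_at sets as a last choice. This left 12845 genes. Those with several symbols (932) were not used. Symbols were checked against RefSeq (GRCm38.p6), which changed 0.

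Group means were estimated from the 12 arrays together in limma 3.58.1 (R 4.3.3) on log2(signal + 10), with eBayes with a trend, 5 two-sided contrasts and Benjamini-Hochberg adjustment over all genes. This scale understates the folds of dim genes. The procedure was also run on simulated data with independent noise on every array. Those data left out the shared deviations of same-number arrays described below. The members and lists were chosen with earlier results of these data known. All members were named. Of the other genes at most 4 per class and direction were named, the largest differences among called genes whose arrays do not overlap.

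Arrays with the same replicate number, as titled in the labels, deviated together: 18 of 18 same-number pairs correlated at over 0.1 (0.118 to 0.52), and other pairs at -0.398 to 0.273. The reported fit did not use the number, and a fit with it as a block was run as an alternative. No label ties a biological replicate to a litter, and p-values measure only how these samples vary. Their number limits the precision. Without detection calls no limit of detection was set.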

Additional observations from a re-analysis of the deposited data

Results flagged for a closer look

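Among the genes named, 1 result had a YFP difference that itself differed between the domains. Dcn differed by -2.69 ± 0.41 on the log2(signal + 10) scale between the rostral and the caudal YFP difference (adjusted p = 0.003 by limma, 3.14e-05 to 0.0143 over 22 alternatives). It averaged 116 in R+ and 132 in R-, and 2345 in C+ and 417 in C-. Its second probe set was dim, at 17 to 91 in R+, 70 to 92 in R-, 19 to 89 in C+ and 9 to 132 in C-. No member of the 4 classes passed this test.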

How the results depend on the processing

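Each member's call was recomputed under 23 alternatives, 12 of which left out 1 array each (22 for the difference of differences). Of 24 member calls 15 passed under all alternatives run, among them those of Hbb-bh1, Hba-x, Hbb-y, Alas2, Pdgfrb and Rgs5 between YFP-positive and YFP-negative cells in both domains, and no call changed sign. Of 49 calls of other named genes 30 passed under all. Leaving out each array in turn gave 7 to 10 called members for R+ against R-, 10 to 13 for C+ against C-, 0 to 4 for R+ against C+, 0 to 3 for R- against C- and 0 for the difference of differences. The replicate block gave 11 and 13 for the YFP comparisons, where 9 and 12 were reported, and 20.9% and 22.8% of all genes, where 12.2% and 13.1% were called without it.

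The domain comparisons were less stable. For R+ against C+ 2 members were called, Csf1r and Esam. There was 1 with an offset of 50, without the filter, with a common median, with all probe sets fitted and with only the groups compared. With the beta-actin ratio as a covariate the 1 called was Hbb-bh1, and Csf1r and Esam were lost (adjusted p = 0.142 and 0.445). The values of that ratio did not overlap between the domains, so this fit cannot separate it from the domain. There were 0 with the mean of probe sets, 8 with the replicate block and 4 without all replicate 1 arrays, an alternative chosen after seeing the data. For R- against C-, where 1 was called, there were 3 with an offset of 50, 2 without the filter, 2 with quantile normalization, 0 with the mean of probe sets, 5 with the replicate block and 4 without all replicate 1 arrays. Apart from the alternatives that drop arrays or average probe sets, the cause was not tested. The 10 members below the filter rest on signals mostly under 107.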
